A study of Mus musculus with 6 samples.

Results

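The genes described here move, store, sense and buffer iron, zinc and copper in mesenchymal stromal cells of mouse bone marrow. Members were chosen by symbol from the table of counts. They are the Slc30a and Slc39a families, the copper importers Slc31a1 and Slc31a2, and 23 single genes of iron, zinc and copper uptake, storage, export, sensing and delivery. The rule found 49 of 53735 features. It reads symbols alone, but it was chosen with earlier results of these data known. The series asks how phagocytosis affects stromal and osteoblast-lineage cells, and compares 3 fed libraries with 3 control libraries.

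Both groups were wild type. The cells were sorted from crushed and digested marrow as negative for haematopoietic lineage markers, CD45 and CD31 and positive for CD51, grown at 2% oxygen and used at passage 2 or 3. Fed cultures received 5000000 dye-labelled apoptotic mouse thymocytes per well for 24 h at 5% oxygen, and the label-positive cells were sorted. Control cultures received no thymocytes and were sorted without a label. The labels do not give the oxygen or the medium change of control wells over those 24 h, and do not give the animals' age or sex. Nothing in them tells whether replicates were grown from different mice or wells. All p-values therefore rest on the variation among these 6 samples, part or all of which may be technical.

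Cells take up iron mostly as transferrin bound to the transferrin receptor, reduce it in endosomes, carry it into the cytosol and store the surplus in ferritin. Iron regulatory proteins bind a hairpin, the iron response element, in a few mRNAs. Bound near the start of ferritin or ferroportin mRNA it blocks translation, and bound near the end of transferrin receptor mRNA it protects the message from decay. Zinc enters the cytosol through Slc39a (ZIP) proteins and leaves it through Slc30a (ZnT) proteins. Metallothioneins bind the surplus and are induced by the zinc-sensing factor Mtf1. Copper enters through Slc31a1, is handed on by chaperones such as Atox1 and Ccs, and is pumped out by Atp7a or Atp7b. Stromal cells of the marrow lay down collagen that is crosslinked by copper-dependent lysyl oxidases, and they sit beside the macrophages that recycle the iron of old red cells.

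Total counts ran from 20034583 to 22410047 in fed libraries and from 19069074 to 21949519 in control libraries. Values are CPM, counts scaled by library total after TMM normalization, with log2 fold changes given as fed over control. The cells kept high stromal markers (a summed 35492 to 37819 CPM in fed and 40837 to 43386 CPM in control libraries over 10 genes), although 7 of the 10 were called lower in fed cells and 1 higher. All 15 thymocyte markers together held 0.644 to 1.45 CPM in fed libraries and 0.417 to 1.00 CPM in control libraries. Of these, Cd3g, Rag2, Ptcra, Cd2 and Cd5 were at 0 in every library. Rag1 had 7, 6 and 12 counts in fed and 0, 2 and 1 counts in control libraries. Cd8a, Cd8b1 and Dntt had 1 to 5 counts in each fed library and none in control libraries. Cd3e and Cd4 had counts in fed replicate 1 alone. Lck had 7, 4 and 12 counts in fed and 8, 11 and 15 counts in control libraries, and was not called. Cd3d, Cd247 and Themis, with at most 2 counts in any library, had lower means in fed libraries, as had Lck. Erythroid markers were also near 0, with Hba-a1, Hba-a2, Hbb-bs, Hbb-bt, Alas2 and Slc4a1 at 0 throughout and a sum over the list of 0.308 to 0.595 CPM in fed and 0.880 to 1.00 CPM in control libraries. The 11 macrophage markers summed to 20.0 to 21.5 CPM in fed libraries, against 14.1 to 15.3 CPM in control libraries. Of these, Adgre1, Itgam, C1qa and C1qb had no count in any control library, and Fcgr1 had none in any library. Of the 4 tested, Lyz2 and Cd14 were called higher in fed cells, and Csf1r and Cd68 were not called. Lyz2 had 7.47 ± 0.866 CPM in fed and 3.32 ± 0.659 CPM in control libraries, and Csf1r 5.40 ± 0.778 and 5.78 ± 0.292 CPM. Pan-leukocyte markers were at 0.966 to 1.06 CPM in fed and 0.142 to 0.316 CPM in control libraries over 4 genes. The part of these marker differences in the results on metal genes was not tested. In bulk RNA, fewer cells of a type and less RNA per cell cannot be told apart.

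The metal-handling genes moved by small amounts and in both directions. In fed cells the transferrin receptor gene Tfrc, the Steap family gene Steap1 and the iron sensor gene Fbxl5 rose, while the metallothionein genes Mt1 and Mt2 fell. These were the 5 members, of 39 tested, that were both called and changed by at least 0.25 on the log2 scale. Over all genes tested, 2991 of 13092 (22.8%) met both limits. A gene was called at a Benjamini-Hochberg adjusted p under 0.05 in edgeR's quasi-likelihood test over all 13092 genes tested. Of the 49 members 39 had enough reads to test, and 19 of these (48.7%) were called, 9 higher and 10 lower. Of the tested members 23.1% were called higher and 25.6% lower, against 20.5% higher and 19.0% lower of all genes tested, where 39.5% were called. The median log2 fold change was -0.05 over the tested members and -0.01 over all genes, and the median absolute change was 0.13 and 0.16. No member changed 2-fold: the changes ran from -0.45 to 0.46. Only 5 members were called higher without fed replicate 2 or without control replicate 1. Exons of Fbxl5, Ftl1, Mt2, Mtf1, Pcbp1, Pcbp2, Slc11a2, Slc30a1, Slc30a4, Slc30a7, Slc39a9 and Slc39a13 overlap an annotated gene on the opposite strand. The strand setting of the counting is not given in the sources used here, so these levels carry that uncertainty.

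**Figure D1:**
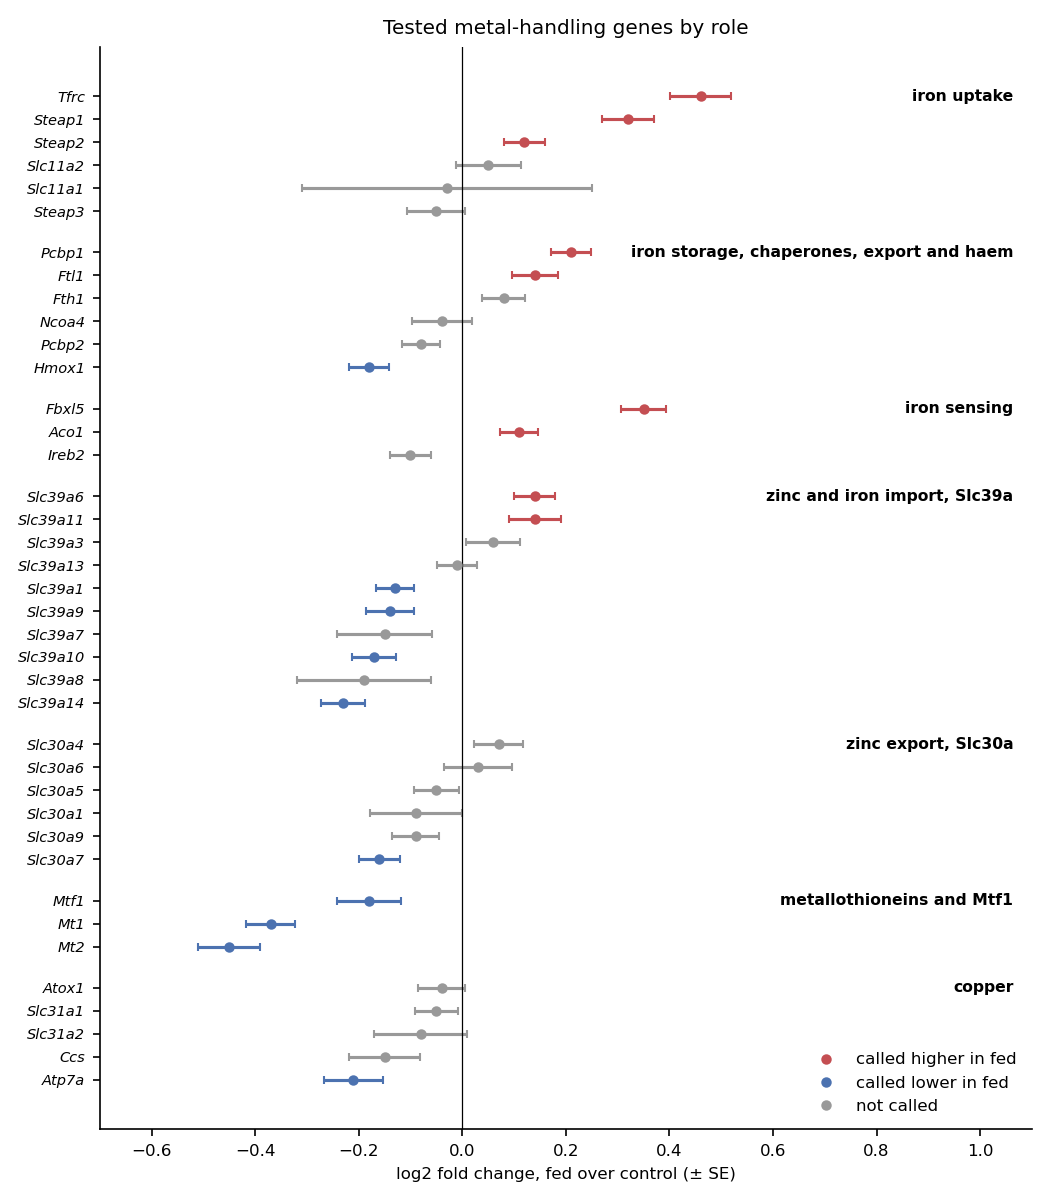
Log2 fold change, fed over control, of the 39 tested metal-handling genes (x axis; points with SE bars), grouped by role (y axis). Red points were called higher in fed cells (9), blue points lower (10) and grey points not called (20). Tfrc, at 0.46, and Mt2, at -0.45, stand at the ends.

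Of 6 iron uptake genes 3 were called higher in fed cells and none lower, against 20.5% higher and 19.0% lower of all genes tested. Tfrc (chromosome 16, 32608920 to 32632794, GRCm38) encodes the receptor that internalizes transferrin-bound iron. Its level was 43.7, 45.6 and 44.3 CPM in fed libraries, against 32.8, 29.4 and 34.9 CPM in control libraries. The lowest fed library was above the highest control library, and the log2 fold change was 0.46 ± 0.058 (SE, adjusted p = 2.3e-06), a 1.38-fold difference. Steap1 and Steap2 are neighbours on chromosome 5 and belong to a family of membrane proteins that includes metalloreductases of iron and copper. Steap1 had 51.7, 54.0 and 53.8 CPM in fed libraries and 39.8, 45.1 and 43.3 CPM in control libraries, a log2 fold change of 0.32 ± 0.051 (adjusted p = 5.12e-05). Steap2 had 227, 245 and 238 CPM in fed and 209, 219.8 and 221 CPM in control libraries. The groups did not overlap for either gene, but the smaller change of Steap2, 0.12 (adjusted p = 0.0151), missed the threshold without fed replicate 2 (0.0984) or control replicate 1 (0.0716).

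The other uptake genes did not pass. Steap3, the endosomal reductase best known from red cell precursors, changed by -0.05 ± 0.056 on the log2 scale (adjusted p = 0.550), with overlapping groups. Slc11a2 (DMT1), which carries ferrous iron out of the endosome, had 36.2, 39.0 and 38.7 CPM in fed libraries and 33.9, 35.7 and 40.8 CPM in control libraries (adjusted p = 0.571). Its groups overlapped, with control replicate 3 the highest of the 6. Slc11a1 (NRAMP1), a transporter of phagosomes in macrophages, was near 1 CPM, with 25, 14 and 33 counts in fed and 28, 21 and 21 counts in control libraries (adjusted p = 0.951).

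The sequences below are the stretches that match the iron response element in mouse transcripts, shown because regulation through this hairpin is textbook knowledge for transferrin receptor, ferritin and ferroportin mRNAs. The pattern asks for a regular stem and misses hairpins with an irregular one, such as that known in the 3′ UTR of Slc11a2 mRNA. Each is 30 bases of the transcript, 5′ to 3′, with T for U and the CAGTGN loop in capitals. A match needed a C, any 5 bases, CAGTGN with a last base other than G, and 5 bases that pair with the first 5 (G-U pairs allowed), read on the transcript strand alone.
Fth1, 5′ UTR, chr19:9982731-9982760, plus strand: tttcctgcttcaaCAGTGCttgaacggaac
Ftl1, 5′ UTR, chr7:45459779-45459808, minus strand: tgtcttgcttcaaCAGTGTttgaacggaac
Slc40a1, 5′ UTR, chr1:45925465-45925494, minus strand: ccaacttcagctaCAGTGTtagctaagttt
Tfrc, 3′ UTR, chr16:32631218-32631247, plus strand: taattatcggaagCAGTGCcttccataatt
Tfrc, 3′ UTR, chr16:32631597-32631626, plus strand: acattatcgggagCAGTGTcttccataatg
Tfrc, 3′ UTR, chr16:32631662-32631691, plus strand: tctatatcggagaCAGTGAtctccatatgt
Tfrc, 3′ UTR, chr16:32631709-32631738, plus strand: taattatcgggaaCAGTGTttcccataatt
Coordinates and sequences are those of GENCODE M21 on GRCm38. Of 21877 protein-coding genes searched, 222 (1.01%) held such a match in any transcript, and 4 of the 49 members did. The 4 Tfrc matches lie in the 3′ UTR, and the ferritin and ferroportin matches in the 5′ UTR. A match is a description of these letters and not evidence of binding in these cells.

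Of the messages with these matches, Tfrc and Ftl1 were called higher in fed cells, Fth1 was not called and Slc40a1 was too low to test. Ferritin genes were the most abundant members: Fth1 and Ftl1, the heavy and light subunits of the iron storage shell, ranked 58 and 87 among all features by mean CPM. Together they held 0.280%, 0.289% and 0.293% of counts in the fed libraries, against at most 0.270% in any control library. Ftl1 had 1125, 1247 and 1144 CPM in fed and 1011, 1095 and 1084 CPM in control libraries, without overlap. Its log2 fold change was 0.14 ± 0.044 (adjusted p = 0.0160), and the call was lost without fed replicate 2 (adjusted p = 0.148) or control replicate 1 (0.0758). Fth1 had 1653, 1612 and 1751 CPM in fed libraries and 1530.4, 1604 and 1623 CPM in control libraries. Fed replicate 2 lay below control replicate 3, and the log2 fold change of 0.08 ± 0.041 did not pass (adjusted p = 0.150, and 0.0395 with the replicate number as a block). Ferritin genes have processed copies in the mouse genome. Of these, Ftl2-ps and Fth-ps2 held at most 6 counts in any library, and how reads matching several genes were counted is not given in the sources used here.

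Within a library, the ratio of Tfrc to Fth1 counts does not depend on the scaling of libraries. It was 0.0264, 0.0283 and 0.0253 in fed libraries and 0.0214, 0.0183 and 0.0215 in control libraries, so every fed library was above every control library. An exact two-sided permutation test gave p = 0.10, the smallest that 3 against 3 allows. The ratio of Ftl1 to Fth1 was 0.702 ± 0.0630 in fed and 0.670 ± 0.0110 in control libraries (SD, n = 3 each, exact permutation p = 0.70). The iron exporter Slc40a1 (ferroportin), the main exit for iron from macrophages, had 1, 2 and 1 counts in fed and 0, 1 and 1 counts in control libraries, below the 3 counts per library (0.134 to 0.157 CPM) that a count of 0 allows.

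Among the iron chaperones and the remaining storage genes, Pcbp1 rose and Hmox1 fell. Pcbp1 is an RNA-binding protein that also delivers iron to ferritin. It had 249, 261 and 253 CPM in fed libraries, against 212, 220.4 and 227 CPM in control libraries, a log2 fold change of 0.21 ± 0.038 (adjusted p = 0.000141). Its paralogue Pcbp2 had 489, 506 and 505 CPM in fed and 510.3, 543 and 536 CPM in control libraries. Those groups did not overlap, but the log2 fold change of -0.08 ± 0.037 missed the threshold (adjusted p = 0.0795), and passed with the replicate block (0.0180) or without control replicate 1 (0.0274). Hmox1 (chromosome 8, 75093621 to 75100589), which opens haem and frees its iron, had 113, 106 and 114 CPM in fed libraries and 125, 125 and 126 CPM in control libraries. The highest fed library lay below the lowest control library, and the log2 fold change was -0.18 ± 0.039 (adjusted p = 0.000808). Ncoa4, the receptor that takes ferritin to the lysosome, had 28.4, 29.2 and 27.5 CPM in fed and 30.6, 27.9 and 29.3 CPM in control libraries (adjusted p = 0.568).

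Of 3 iron sensor genes, Fbxl5 and Aco1 rose and Ireb2 did not pass, where 20.5% of all genes tested were called higher and 19.0% lower. Fbxl5 (chromosome 5, 43744615 to 43821638) is the iron-binding ubiquitin ligase subunit that marks iron regulatory protein 2 for degradation when iron is plentiful. It had 58.3, 59.1 and 59.8 CPM in fed libraries, against 46.3, 46.3 and 46.2 CPM in control libraries. Libraries of each group lay close together and the groups far apart, with a log2 fold change of 0.35 ± 0.043 (adjusted p = 1.96e-06). Ireb2, which encodes iron regulatory protein 2, had 69.4, 69.3 and 70.8 CPM in fed and 75.5, 73.6 and 75.1 CPM in control libraries. Its groups did not overlap, yet the log2 fold change of -0.10 ± 0.040 missed the threshold (adjusted p = 0.0572). It passed with genes of a mean of at least 1 CPM tested (0.0495) and with the replicate block (0.0377). Aco1, the cytosolic aconitase that acts as iron regulatory protein 1 when it lacks its iron-sulphur cluster, had 107, 108 and 105 CPM in fed and 98.1, 100.4 and 98.9 CPM in control libraries. The log2 fold change of Aco1 was 0.11 ± 0.037 (adjusted p = 0.0281). That call was lost by DESeq2 (0.0873) and on leaving out any single library other than fed replicate 3, with values from 0.0548 to 0.0868.

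**Figure D2:**
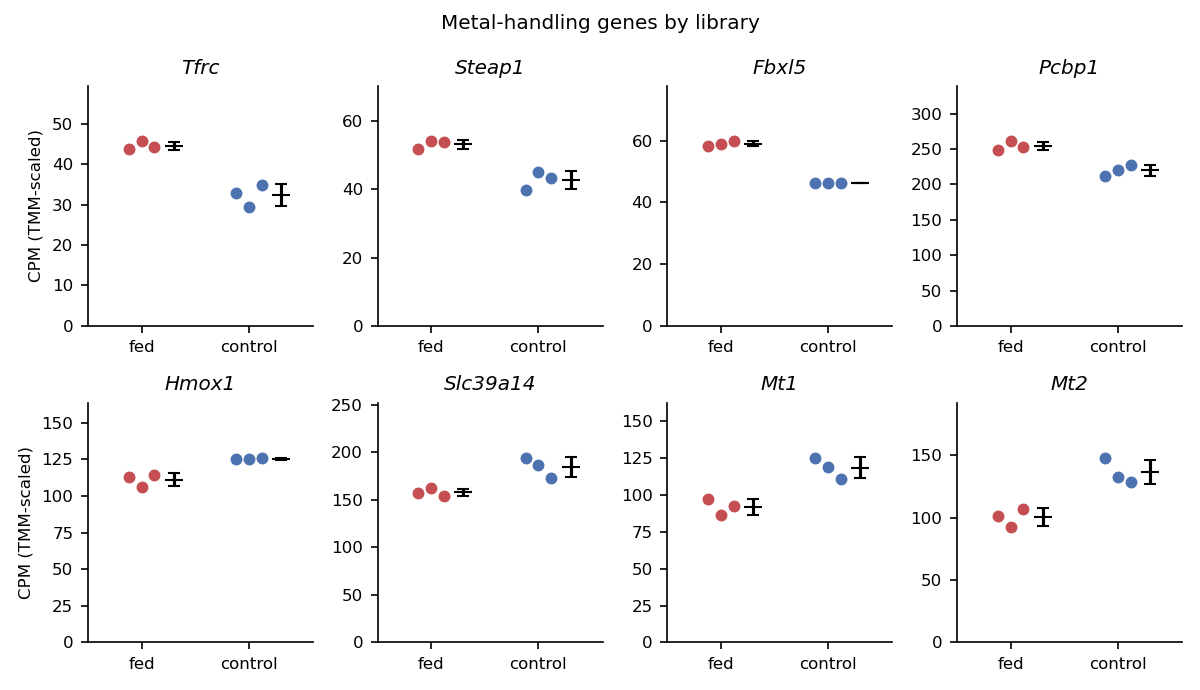
CPM (y axes, from 0) of 8 metal-handling genes in each fed library (red) and each control library (blue), with mean ± SD beside the points (n = 3 each). For all 8 genes the groups do not overlap: Tfrc, Steap1, Fbxl5 and Pcbp1 sit higher in fed libraries, and Hmox1, Slc39a14, Mt1 and Mt2 lower.

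Mt1, Mt2 and Mtf1 were all called lower in fed cells, where 19.0% of all genes tested were lower. Mt1 and Mt2 are small cysteine-rich proteins that bind zinc and copper, and lie side by side on chromosome 8. Mt1 (94179082 to 94180327) had 97.4, 86.4 and 92.1 CPM in fed libraries, against 125, 119 and 111 CPM in control libraries, a log2 fold change of -0.37 ± 0.048 (adjusted p = 8.89e-06). Mt2 (94172664 to 94173568) had 101, 92.8 and 107 CPM in fed and 148, 133 and 129 CPM in control libraries, a log2 fold change of -0.45 ± 0.060 (adjusted p = 8.38e-05). Neither gene's groups overlapped, and both calls held in all 14 alternatives. The ratio of Mt2 to Mt1 counts was 1.09 ± 0.0621 in fed and 1.15 ± 0.0398 in control libraries, with overlapping groups (SD, n = 3 each, exact two-sided permutation p = 0.20). Mtf1, the zinc-sensing transcription factor, had 22.2, 20.6 and 20.6 CPM in fed libraries, against 24.7, 23.4 and 23.7 CPM in control libraries. Its log2 fold change was -0.18 ± 0.062 (adjusted p = 0.0237). The call of Mtf1 was lost with library totals only (0.0572), by DESeq2 (0.102) and without fed replicate 2 (0.0886), fed replicate 3 (0.0800) or control replicate 1 (0.0771).

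The promoters of both metallothionein genes are shown because these genes fell together and metal response elements are the sites known to bind Mtf1. Windows rest on the annotated start, and elements outside a window were not counted. Each run is the RefSeq window on GRCm38.p6 from 250 bases before to 50 after the annotated start, plus strand, with the metal response element cores TGCACNC and TGCGCNC of either strand in capitals.
Mt1, chr8:94178839-94179138: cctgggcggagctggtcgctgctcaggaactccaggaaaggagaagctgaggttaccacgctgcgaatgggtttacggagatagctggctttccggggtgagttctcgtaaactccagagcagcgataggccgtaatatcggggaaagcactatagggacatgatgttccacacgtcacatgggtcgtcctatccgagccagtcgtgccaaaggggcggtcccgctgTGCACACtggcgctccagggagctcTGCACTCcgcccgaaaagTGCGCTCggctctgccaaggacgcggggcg
Mt2, chr8:94172368-94172667: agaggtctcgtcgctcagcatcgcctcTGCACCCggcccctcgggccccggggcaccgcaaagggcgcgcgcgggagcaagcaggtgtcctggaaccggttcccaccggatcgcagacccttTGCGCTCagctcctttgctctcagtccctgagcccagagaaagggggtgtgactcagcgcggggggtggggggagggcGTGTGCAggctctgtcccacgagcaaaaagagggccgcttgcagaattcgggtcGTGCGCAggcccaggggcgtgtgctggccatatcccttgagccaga
The Mt1 window held 3 cores, with first bases 23 bases before the annotated start and at positions 3 and 21 after it. The Mt2 window held 4, of which 2 are on the minus strand. Of 32851 promoter windows of this length, 12.6% held TGCACNC and 15.4% TGCGCNC on either strand. At least 3 cores were present in 1.97% of windows and at least 4 in 0.517%. Windows were given for 40 of the 49 members. The called Hmox1, Slc39a14, Fbxl5 and Slc39a6 were without a window, as were Ccs, Slc11a2, Slc30a8, Slc39a4 and Slc40a1. Mtf1, which also fell, held no core in its window. Slc30a4, which was not called, and Slc30a10, which had no counts, held 3 cores in a window, as many as Mt1. Slc30a1, known as an Mtf1 target and not called, Slc30a2, too low to test, Tfrc, called higher, and Atp7a, called lower, held 2. Cores were thus present in windows of genes that fell, rose or were not called. Of the 55 windows of the 40 genes, 12 held TGCACNC and 17 TGCGCNC, against 12.6% and 15.4% of all windows. Antioxidant response element cores (TGACNNNGC) were in 11 of the 55 windows and in 12.4% of all windows. Hypoxia response element cores (ACGTG) were in 20 of the 55 and in 19.6% of all windows. Whether these member counts differ from the shares over all windows was not tested.

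Zinc transporter genes were called in both directions. Of the Slc39a family 10 of 14 genes were tested, with 2 higher and 4 lower, where 20.5% of all genes tested were higher and 19.0% lower. The number higher is thus close to the share over all genes. Slc39a14 (ZIP14), which carries zinc, iron that is not bound to transferrin, and manganese, was the most changed of the called family members. It had 157, 162 and 154 CPM in fed libraries, against 194, 186 and 173 CPM in control libraries, a log2 fold change of -0.23 ± 0.042 (adjusted p = 0.000237). Slc39a10, a plasma membrane zinc importer, had 55.6, 54.6 and 55.2 CPM in fed and 61.8, 60.8 and 63.4 CPM in control libraries, a log2 fold change of -0.17 (adjusted p = 0.00331). Its relative Slc39a6 (ZIP6), with which it forms pairs, had 86.0, 88.1 and 91.8 CPM in fed and 80.3, 80.5 and 80.3 CPM in control libraries, a log2 fold change of 0.14 (adjusted p = 0.00732). These partners differed in direction, both without overlap between groups and both called in every alternative.

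The remaining calls of the Slc39a family were less stable. Slc39a1 (ZIP1), a plasma membrane importer, fell by 0.13 on the log2 scale to 289 ± 6.34 CPM in fed libraries, against 316 ± 10.7 CPM in control libraries (adjusted p = 0.00929). It missed the threshold with library totals only (0.0562) and without fed replicate 2 (0.0615) or control replicate 3 (0.0507). For Slc39a9 the log2 fold change was -0.14 with overlapping groups (adjusted p = 0.0234). The call of Slc39a9 was lost with library totals only (0.0877), by DESeq2 (0.0667) and without fed replicate 1 (0.126), fed replicate 3 (0.0751), control replicate 2 (0.0829) or control replicate 3 (0.0632). Slc39a11, higher by 0.14 (adjusted p = 0.0274), lost its call by DESeq2 (0.103) and without fed replicate 2 (0.0587), fed replicate 3 (0.0968), control replicate 1 (0.0596) or control replicate 3 (0.0836). Slc39a3, Slc39a7, Slc39a8 and Slc39a13 did not pass, with log2 fold changes of 0.06, -0.15, -0.19 and -0.01. Slc39a7, a zinc channel of the endoplasmic reticulum, shares 2084 exonic bases with an annotated transcript on its own strand, so its level of 9.30 ± 0.589 CPM in fed and 10.3 ± 0.798 CPM in control libraries is uncertain.

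Of 10 zinc exporter genes of the Slc30a family 6 were tested, 1 was called lower and none higher. Over all genes tested, 19.0% were called lower and 20.5% higher. Slc30a7 (ZnT7), which loads zinc into the Golgi, had 78.1, 78.4 and 80.5 CPM in fed libraries, against 88.8, 85.9 and 91.0 CPM in control libraries. The log2 fold change was -0.16 ± 0.040 (adjusted p = 0.00246), a call that held in all 14 alternatives. Slc30a5 and Slc30a6, which form a pair in the same secretory compartments, had log2 fold changes of -0.05 and 0.03 and did not pass. Slc30a1 (ZnT1), the exporter of the plasma membrane, had 9.91, 9.66 and 9.82 CPM in fed and 9.55, 10.3 and 11.4 CPM in control libraries. Its groups overlapped (adjusted p = 0.459). Slc30a4 and Slc30a9 had log2 fold changes of 0.07 and -0.09 and did not pass, although Slc30a4 passed without control replicate 3 (0.0415).

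Per kilobase of principal transcript, Slc39a1 was the most abundant zinc transporter gene, at 122 CPM per kb in fed and 134 in control libraries. It was followed by Slc39a13, a transporter of secretory vesicles needed in connective tissue, at 41.0 in fed and 41.2 in control libraries, and by Slc39a14 at 32.0 and 37.4. In the Slc30a family, Slc30a4 and Slc30a5 shared the top, both at 17.9 CPM per kb in fed libraries and at 17.1 and 18.5 in control libraries. These 2 did not differ beyond their spread over libraries. Slc30a1 was lowest of the tested Slc30a genes, at 1.87 in fed and 1.99 in control libraries. The order rests on annotated lengths, since the transcripts used in these cells were not measured.

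**Figure D3:**
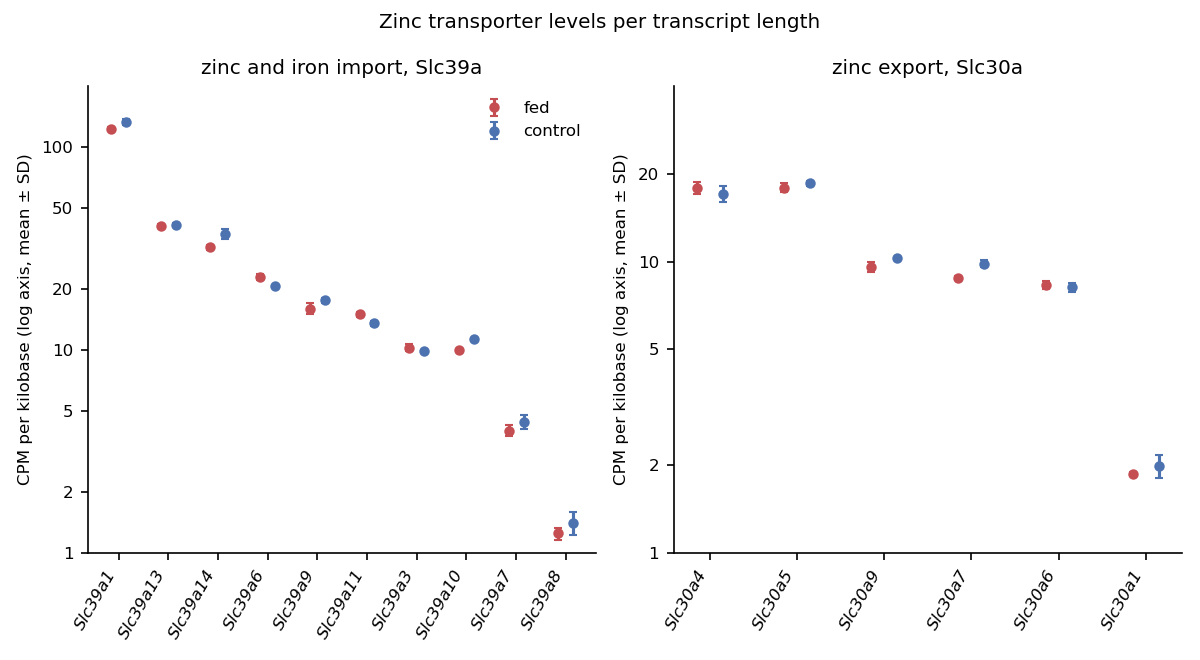
Level of the tested Slc39a and Slc30a genes in CPM per kilobase of principal transcript (log y axes; mean ± SD over 3 libraries), fed in red left of control in blue. Slc39a1 stands highest at 122 in fed and 134 in control libraries, and differences between groups are small beside differences between genes.

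Differences among copper genes were small. Of 6 genes 5 were tested, with 1 lower and none higher, where 19.0% of all genes tested were lower and 20.5% higher. Atp7a, the pump that loads copper into the secretory pathway and out of the cell, had 28.8, 27.4 and 28.8 CPM in fed libraries, against 32.9, 34.3 and 30.8 CPM in control libraries. The groups did not overlap, with a log2 fold change of -0.21 ± 0.057 (adjusted p = 0.00663), which just missed the threshold without control replicate 2 (0.0527). Slc31a1 (CTR1), the high-affinity importer, had 64.3, 66.4 and 63.8 CPM in fed and 65.2, 67.1 and 69.0 CPM in control libraries (adjusted p = 0.384). Atox1, the chaperone that hands copper to Atp7a, had 63.2 ± 0.0326 CPM in fed and 65.1 ± 3.71 CPM in control libraries (adjusted p = 0.487). Ccs, which delivers copper to superoxide dismutase, had 22.6, 22.3 and 19.3 CPM in fed and 23.4, 24.4 and 23.3 CPM in control libraries. Those groups did not overlap, but the log2 fold change of -0.15 did not pass (adjusted p = 0.0855). Slc31a2 stood at 9.12 ± 0.591 CPM in fed and 9.63 ± 0.125 CPM in control libraries (adjusted p = 0.516).

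The 10 untested members had too few reads, and none of them exceeded 15 counts in any library. Slc30a8, Slc30a10 and Slc39a12 had no count in any of the 6 libraries, which allows up to 3 counts per library. Atp7b, the copper pump of liver, had 5, 9 and 3 counts in fed libraries and 13, 8 and 15 counts in control libraries, with overlap between the groups. Slc39a4, the zinc importer of the gut, had 7 counts in fed replicate 3, none in the other fed libraries and at most 1 in any control library. Slc30a2, Slc30a3, Slc39a2, Slc39a5 and Slc40a1 had at most 2 counts in any library. None of the 39 tested members had a mean under 1 CPM in either group, so none passed the filter through 1 group alone. Without overlap between groups were 9 members higher and 13 lower in fed cells, that is 22 of 39, where 49.1% of all genes tested did not overlap, 25.1% higher and 24.0% lower.

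Other genes of the same pathways were described from 7 lists of 114 symbols, of which 111 were in the table and 95 were tested. In fed cells 23 rose and 16 fell, with a median log2 fold change of 0.04. Both counts are near the shares over all genes tested, 20.5% higher and 19.0% lower, against which the counts of each list below are to be read. Genes of mitochondrial iron and iron-sulphur cluster assembly had 9 higher and 1 lower of 30, against 20.5% and 19.0% of all genes tested. Their median change was 0.10 on the log2 scale, against -0.01 over all genes. The number higher was 5 by DESeq2 or without control replicate 2, and 2 fell with the replicate block or without fed replicate 3. Ciapin1, an early factor of cytosolic cluster assembly, had 25.2 ± 1.69 CPM in fed and 19.0 ± 1.49 CPM in control libraries (log2 fold change 0.41, adjusted p = 9.86e-05). The cluster scaffold gene Nubp1 and the outer mitochondrial membrane protein gene Cisd1 rose by 0.31 and 0.30, and Cisd2 by 0.27. The mitochondrial iron importers Slc25a28 and Slc25a37 did not pass (0.17 and 0.08).

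Haem synthesis had 2 of 10 genes higher and none lower. Among them Alad, which acts early in the pathway, had 19.4 ± 0.853 CPM in fed and 15.6 ± 1.17 CPM in control libraries (log2 fold change 0.32, adjusted p = 0.00130). Alas1, the rate-limiting first enzyme outside red cells, had 42.3 ± 1.17 CPM in fed and 41.2 ± 2.68 CPM in control libraries (adjusted p = 0.605). Of 8 tested genes of haem breakdown and transport only Blvra, a biliverdin reductase, was called, higher by 0.24 (adjusted p = 0.0105), and not without control replicate 1 (0.0688). Hmox2, the constitutive haem oxygenase, stood at 61.6 ± 1.59 CPM in fed and 61.0 ± 1.17 CPM in control libraries (adjusted p = 0.819), beside the lower Hmox1.

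Genes of systemic iron regulation and ferroxidases had 1 higher and 5 lower of 11 tested, with a median of -0.16, and 2 higher without fed replicate 1. Lcn2, a secreted protein that binds bacterial iron carriers, had 203 ± 5.92 CPM in fed and 106 ± 2.07 CPM in control libraries (log2 fold change 0.93, adjusted p = 1.33e-12). Steap4, a metalloreductase of the Steap family, had 11.1, 10.6 and 10.5 CPM in fed libraries, against 19.0, 17.8 and 15.9 CPM in control libraries. Its log2 fold change of -0.71 ± 0.079 (adjusted p = 5e-07) ran opposite to that of Steap1. Hfe, which binds the transferrin receptor, fell by 0.38 to 16.5 ± 1.67 CPM in fed libraries, against 21.4 ± 1.20 CPM in control libraries. Neo1, a co-receptor for bone morphogenetic protein signals to hepcidin, fell by 0.29. Cybrd1, a ferric reductase of the gut, had a log2 fold change of -0.72 at low levels, with 2.29 ± 0.464 CPM in fed and 3.73 ± 0.712 CPM in control libraries. Hepcidin itself (Hamp, Hamp2) had no count in any library.

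Genes of lipid peroxidation defence and ferroptosis had 4 higher and 3 lower of 12. Cd44, a hyaluronan receptor, rose by 0.58 to 262 ± 10.5 CPM in fed libraries, against 176 ± 5.44 CPM in control libraries, and Dhodh, a mitochondrial enzyme of pyrimidine synthesis, by 0.34. The number lower was 1 with library totals only and without fed replicate 1, fed replicate 2 or control replicate 2. Gpx4, the central lipid peroxidase, had 154 ± 9.12 CPM in fed and 158 ± 5.06 CPM in control libraries (adjusted p = 0.488), and the cystine importer Slc7a11 did not pass either (adjusted p = 0.273).

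Copper enzymes and delivery genes had 2 higher and 5 lower of 17. Sod3, the secreted copper-zinc superoxide dismutase, had 406 ± 11.8 CPM in fed and 469 ± 23.4 CPM in control libraries, a log2 fold change of -0.21 (adjusted p = 0.000302). Of the lysyl oxidase genes, Loxl1 fell by 0.22 and Loxl2 by 0.24, and Loxl3 rose by 0.10 (adjusted p = 0.0449, a call lost in 7 alternatives, DESeq2 among them). Loxl4 did not pass (adjusted p = 0.528), and Lox, at 8389 ± 318 CPM in fed and 8602 ± 169.9 CPM in control libraries, did not pass (adjusted p = 0.525). Memo1, a copper-binding protein, rose by 0.26. Of these counts, the 5 lower became 3 with library totals only and without fed replicate 2, fed replicate 3 or control replicate 2. The 2 higher became 1 by DESeq2, without robust estimation, and on leaving out any library other than control replicate 3.

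Other zinc-linked genes had 4 higher and 2 lower of 7. S100a8, 1 subunit of a zinc-binding protein of neutrophils, had 15, 23 and 12 counts in fed libraries and 4, 5 and 2 counts in control libraries, under 1.1 CPM in every library. It had enough reads to be tested through its fed libraries alone, so its call, 1 of the 4 higher, is not read as a result. The pan-leukocyte markers given above were also higher in fed libraries, and their part in these counts was not tested. Trpm7, a channel that passes zinc and magnesium, fell by 0.18, and Clcn7, a lysosomal chloride exchanger, rose by 0.21. Of these counts, the 4 higher became 1 by DESeq2, which gave S100a8 no adjusted p, and 2 without fed replicate 1, and the 2 lower became 1 without fed replicate 3 or control replicate 1, where the call of Kif21a was lost (0.0764 and 0.0604).

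**Figure D4:**
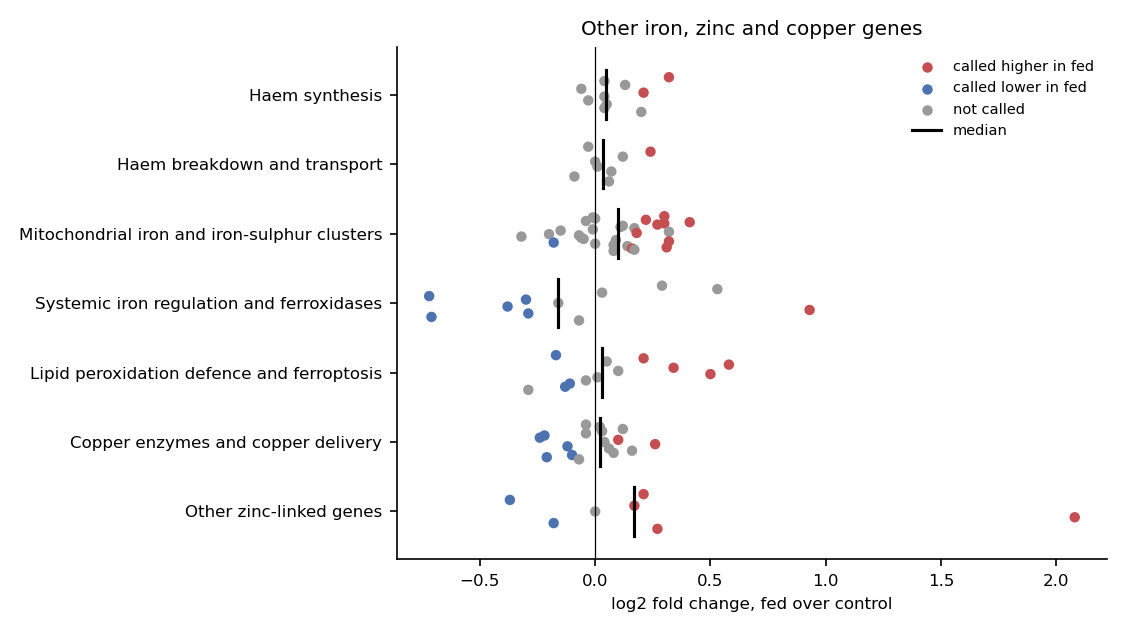
Log2 fold change, fed over control (x axis), of the 95 tested genes in 7 lists of related iron, zinc and copper functions (y axis). Red points were called higher (23), blue points lower (16) and grey points not called, and black bars are the medians of the lists, between -0.16 and 0.17. The point at 2.08 is S100a8, which had enough reads to be tested only through its fed libraries, so nothing is read from it.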

How the data were processed

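RNA from 3 fed and 3 control cultures (200 ng, stranded library of polyadenylated RNA, per the labels' protocols) was sequenced. The authors deposited raw counts per gene symbol. Per the submitters' processing notes they used Trimmomatic 0.36, STAR 2.6.0c, featureCounts of Subread 1.6.1, MultiQC 1.5 and GRCm38. The annotation release, strand setting and treatment of multiply matching reads were not stated there or in the labels, so genes that overlap another gene (15 of the 49 members, by GENCODE M21 exons) or have near-identical copies are less certain. Names that read as dates made up 27 features and 0.227% of counts, and were kept in the totals.

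Tests ran on the deposited counts in edgeR 4.0.16 under R 4.3.3 (filterByExpr, TMM, robust quasi-likelihood F-test, no replicate block, Benjamini-Hochberg over 13092 genes). Errors beside log2 fold changes are SEs from the F statistic, and those beside CPM are SDs over 3 libraries. Pairs of libraries within a group differed by more than sampling noise (chi-square per degree of freedom of 2.67 to 6.19). The procedure was tested on simulated data. Alternatives included DESeq2 1.42.0 and limma 3.58.1 (voom). Limits from a count of 0 cover counting error only. Levels per kilobase use the longest APPRIS principal transcript.

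The members and lists were chosen with earlier results of these data known. All members are accounted for. Values in every library are given for called members that changed by at least 0.25 and for a panel of 17, and for further members chosen after their values were seen. Up to 4 called genes per list, by adjusted p, could be named. Others named there were chosen later. Results for 3 further genes are not reported here.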

Additional observations from a re-analysis of the deposited data

How the results depend on the processing

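Of 19 called members, 11 kept their call in all 14 alternatives (other scalings, filters, tools, the replicate block and each library left out), and 8 lost it in at least 1. Members called ran from 5 to 8 higher and from 8 to 10 lower on leaving out a library, against 9 and 10. The replicate block gave 10 and 12, with all 19 calls kept. Numbers 1 to 3 are shared between groups, but the labels do not say what a number marks. The libraries were therefore not treated as pairs. Deviations of same-numbered libraries correlated at 0.101, 0.0220 and 0.128, against -0.115 to 0.0271 for differently numbered ones. These values do not settle whether the numbers mark pairs. Over all genes, DESeq2 called 2077 higher and 1894 lower and the block 2989 and 2859. Library totals only gave 3183 and 2029, and 9 and 7 members.

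Among tested members, the sign turned for 4 that were not called. Slc11a1 was 0.01 with library totals only, 0.25 without fed replicate 2 and 0.09 without control replicate 1, and from -0.28 to 0.25 over all left-out libraries. Slc39a13 was 0.03, 0.00, 0.01 and 0.01 with library totals only, with no filter beyond 10 counts in all, without fed replicate 2 and without control replicate 1, and from -0.02 to 0.01 over all left-out libraries. Steap3 was 0.02 without fed replicate 2 (-0.08 to 0.02 over left-out libraries), and Slc11a2 was -0.01 without control replicate 1 (-0.01 to 0.13). The causes were not tested. With 3 libraries a group, the smallest change called among members was 0.11, in Aco1.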
